A study of Mus musculus with 6 samples.

Results

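The messages described here encode 10 heterogeneous nuclear ribonucleoproteins (hnRNPs): Hnrnpa1, Hnrnpa2b1, Hnrnpa3, Hnrnpc, Hnrnpd, Hnrnpf, Hnrnph1, Hnrnpk, Hnrnpl and Hnrnpu. They were chosen by name as abundant members of the family, out of 51912 genes to which the transcripts of the deposited files could be assigned, and all 10 passed the filter on low counts. RNA with poly(A) tails came from E14, an established mouse embryonic stem cell line, at different steps of a ribosome purification called RAPIDASH. In every sample cells had received cycloheximide, a drug that arrests ribosomes on messages, for 3 minutes, and lysates had been spun through a sucrose cushion. The 3 eluates are cushion material that was then bound to and released from a sulfhydryl-charged (cysteine) resin, and the 3 pellets are cushion material extracted with no resin step. The comparison asks which messages the added resin step enriches or depletes. Nothing in the labels says that samples of a group were grown as separate cultures, and the p-values therefore describe only how these samples vary, which may be technical variation.

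HnRNP proteins coat newly made transcripts in the nucleus and help decide how these are spliced, exported, kept stable and translated. Most carry RNA recognition motifs or KH domains, and each prefers certain short sequences, such as runs of G, C or U or CA repeats. Several hnRNP genes control their own output through alternative splicing, and many, among them Hnrnpa1 and Hnrnpa3, have left processed pseudogenes in the mouse genome.

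Eluates 1 to 3 were sequenced to 1.16e+07, 1.13e+07 and 1.00e+07 estimated counts and pellets 1 to 3 to 8.44e+06, 1.04e+07 and 7.84e+06. Pellet 1 stood apart: the chi-square value per gene against the other pellets was 18.0 and 14.1. Pellets 2 and 3 gave 3.55 and pairs of eluates gave 3.12 to 4.01. Pellet 1 was also closer to the eluates, at 32.9 to 35.7 against them, while pellets 2 and 3 were at 65.5 to 81.9. All 8 stem cell markers examined, among them Pou5f1 and Nanog, were abundant with 341 to 4347 CPM (counts scaled to library size, the unit used below for each gene) in a library. Of 10 markers of differentiated or feeder cells, 5 passed the filter on low counts and none of these exceeded 20.4 CPM. The pan-leukocyte gene Ptprc had a count of 0 in all 6 libraries.

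Levels were compared between genes in TPM, an abundance scaled by message length. The 10 messages ranked within the top 1.58% (Hnrnpa1) to 13.1% (Hnrnpu) of the 13231 genes tested. In eluates Hnrnpa1 was highest, at 708 ± 13.0 TPM (SD, n = 3), followed by Hnrnpa3 at 601 ± 36.1 TPM. Hnrnpa2b1 (477 ± 31.02 TPM) and Hnrnpf (469 ± 19.2 TPM) came next with overlapping ranges. A group of 4 messages, Hnrnpk, Hnrnpd, Hnrnpc and Hnrnpl, lay between 286 and 310 TPM, and each neighbour in that order overlapped the next. Hnrnph1 at 55.5 ± 1.32 TPM and Hnrnpu at 36.7 ± 3.94 TPM were far below the rest and apart from each other. In pellets Hnrnpa3 (772 ± 117 TPM) and Hnrnpa1 (675 ± 5.84 TPM) overlapped at the top, and Hnrnpf (543 ± 35.6 TPM) overlapped Hnrnpa2b1 (535 ± 29.5 TPM). Hnrnpk (380 ± 28.2 TPM) overlapped Hnrnpc (367 ± 2.22 TPM), and Hnrnpl and Hnrnpd were both at 269 TPM, with SDs of 29.2 and 18.6. Hnrnph1 at 96.2 ± 7.95 TPM and Hnrnpu at 80.7 ± 2.77 TPM closed the order in pellets too. The 10 are not simply the most abundant messages of the family. Hnrnpab, not among them, was at 776 ± 18.2 TPM in eluates and 730 ± 12.3 TPM in pellets.

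Between eluates and pellets, 2 of the 10 messages were higher in eluates (Hnrnpd and Hnrnpl), 5 were lower (Hnrnpu, Hnrnph1, Hnrnpk, Hnrnpc and Hnrnpf) and 3 did not pass the test (Hnrnpa1, Hnrnpa2b1 and Hnrnpa3). The test was edgeR's quasi-likelihood test across all genes at an adjusted p under 0.05, which called 52.7% of the genes tested, 24.5% higher and 28.2% lower. The median log2 fold change, eluate over pellet, was -0.20 over the 10 messages and 0.00345 over all genes tested. In CPM the eluate and pellet libraries did not overlap for 7 of the 10 messages, 2 above and 5 below. The same held for 60.3% of all genes (29.1% above and 31.2% below). Together the 10 messages made up 0.600 ± 0.0265% of the assigned counts in eluates and 0.673 ± 0.0380% in pellets (SD, n = 3 each). These bulk libraries compare steps of a purification, and the values do not measure how much of a message a cell held. Without pellet 1, 2 messages were called higher and 7 lower, in a fit that called 57.4% of all genes (27.5% higher and 29.9% lower).

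**Figure D1:**
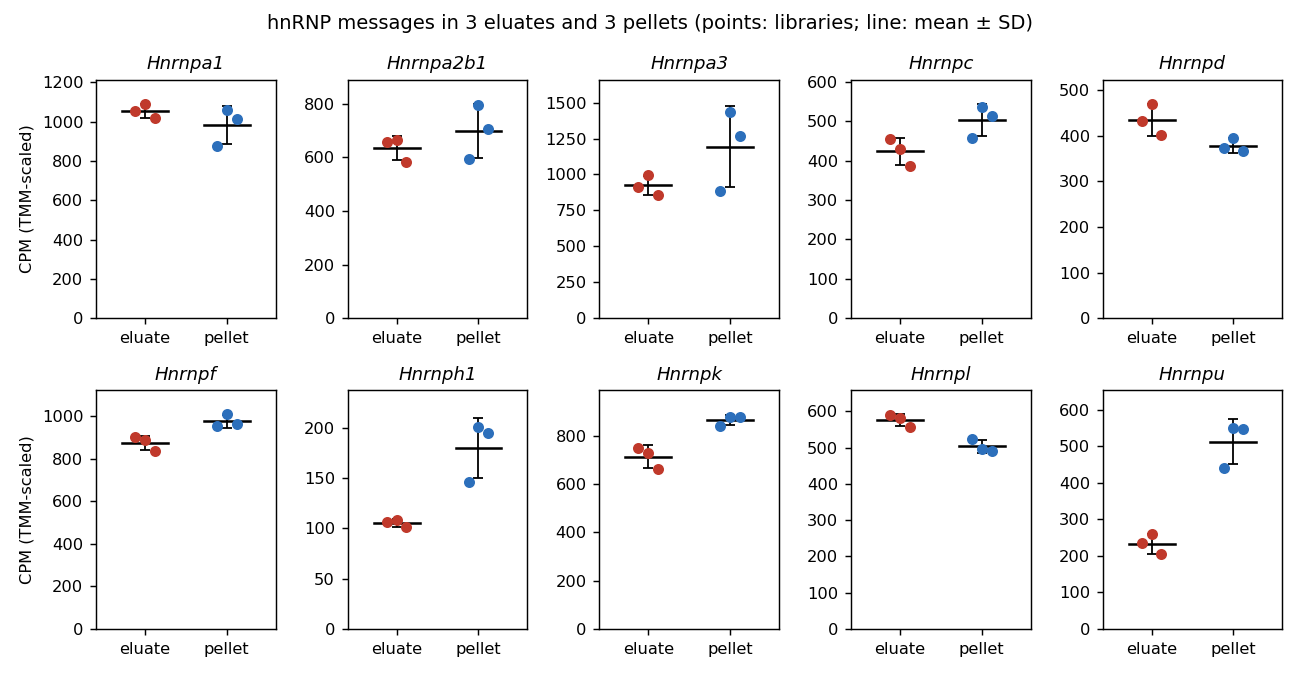
Level of each of the 10 messages in CPM (scaled by TMM factors), with 1 point per library for the 3 eluates (left, red) and the 3 pellets (right, blue), a line for the mean and a bar for the SD. Every eluate lies below every pellet for Hnrnpu, where eluates reach 204 to 259 CPM and pellets 441 to 551 CPM, while the groups overlap for Hnrnpa1, Hnrnpa2b1 and Hnrnpa3.

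Hnrnpu encodes the scaffold attachment factor, a nuclear matrix protein with an RGG box that binds RNA and chromatin. Its message (ENSMUSG00000039630, chr1:178321108-178337797, minus strand, GRCm38) was at 235, 259 and 204 CPM in eluates 1 to 3 and at 441, 551 and 546 CPM in pellets 1 to 3. All 3 eluates were far below the lowest pellet. The log2 fold change of -1.14 ± 0.10 (SE) was the lowest of the 10, with an edgeR adjusted p of 5.42e-06. No left-out library ended this call, with log2 fold changes of -1.25 to -1.01.

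The G-run binding proteins hnRNP F and H are close relatives that bind through quasi-RNA recognition motifs and act on splicing and polyadenylation. Hnrnph1 (ENSMUSG00000007850, chr11:50376990-50386528, plus strand) was at 106, 109 and 102 CPM in eluates and at 146, 201 and 195 CPM in pellets. The eluates lay close together, all below the lowest pellet, which was pellet 1. Its log2 fold change was -0.77 ± 0.10 (edgeR adjusted p = 6.05e-05), and it held without any single library. Hnrnpf (ENSMUSG00000042079, chr6:117900324-117925622, plus strand) was at 902, 886 and 838 CPM in eluates and at 953, 1010 and 962 CPM in pellets. The groups did not overlap, but the gap between eluate 1 and pellet 1 was smaller than the range of either group. Hnrnpf had a log2 fold change of -0.16 ± 0.063 with an adjusted p of 0.0495 in edgeR, at the edge of the threshold. The Hnrnpf call was lost without eluate 1, 2 or 3 and without pellet 2 or 3, at log2 fold changes of -0.17, -0.16, -0.12, -0.12 and -0.17, and in edgeR with RLE or upper-quartile factors, library totals only, no filter on low counts or an effective-length offset. DESeq2 kept it, at -0.14 with an adjusted p of 0.0485.

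HnRNP K binds C-rich RNA and DNA through KH domains. Hnrnpk (ENSMUSG00000021546, chr13:58391142-58403343, minus strand) was at 750, 730 and 662 CPM in eluates and at 842, 879 and 877 CPM in pellets. Every eluate was below every pellet. The log2 fold change was -0.28 ± 0.066 (edgeR adjusted p = 0.00229). HnRNP C forms tetramers on U-rich stretches of nascent transcripts and is retained in the nucleus. Hnrnpc (ENSMUSG00000060373, chr14:52073377-52104028, minus strand) was at 454, 430 and 387 CPM in eluates and at 458, 536 and 513 CPM in pellets. Eluate 1 nearly reached pellet 1, and the other libraries were well apart. Its log2 fold change was -0.24 ± 0.076 (edgeR adjusted p = 0.0134), and the call was lost without eluate 3, pellet 2 or pellet 3, at -0.18, -0.19 and -0.23.

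The messages that rose encode proteins with other RNA preferences. HnRNP L binds CA repeats and regulates splicing. Hnrnpl (ENSMUSG00000015165, chr7:28808541-28822266, plus strand) was at 590, 581 and 558 CPM in eluates and at 524, 496 and 490 CPM in pellets. All eluates were above all pellets, and the spread within each group was small. The log2 fold change was 0.20 ± 0.062 (edgeR adjusted p = 0.0153). HnRNP D, also called AUF1, binds AU-rich elements in the tails of messages and controls their decay. Hnrnpd (ENSMUSG00000000568, chr5:99955935-99978938, minus strand) was at 432, 469 and 401 CPM in eluates and at 373, 396 and 366 CPM in pellets. The groups were apart, though eluate 3 was close to pellet 2. The log2 fold change was 0.20 ± 0.070 (edgeR adjusted p = 0.0260). Both calls were lost without eluate 1, eluate 2 or pellet 3, where Hnrnpl had log2 fold changes of 0.18, 0.19 and 0.17 and Hnrnpd of 0.21, 0.14 and 0.17. In TPM the groups overlapped for both messages. Hnrnpl was at 303 TPM in pellet 1 and 278 to 296 TPM in eluates. Hnrnpd was at 288 TPM in pellet 1 and 278 to 320 TPM in eluates. Limma on log2(TPM + 1) called neither, with Hnrnpl at 0.092 (adjusted p = 0.416) and Hnrnpd at 0.16 (adjusted p = 0.144).

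The A/B proteins package pre-mRNA and repress splice sites. Hnrnpa1 (ENSMUSG00000046434, chr15:103240432-103246692, plus strand), the message of a protein that shuttles between nucleus and cytoplasm, was at 1052, 1092 and 1021 CPM in eluates and at 876, 1061 and 1012 CPM in pellets. Pellet 1 was the lowest library, and the other 5 lay between 1012 and 1092 CPM. The log2 fold change was 0.10 ± 0.074 (edgeR adjusted p = 0.262). Hnrnpa2b1 (ENSMUSG00000004980, chr6:51460932-51469894, minus strand), whose protein also takes part in RNA transport, was at 657, 664 and 583 CPM in eluates and at 594, 794 and 705 CPM in pellets. Pellet 1 was again the lowest pellet and fell among the eluates. Its log2 fold change was -0.14 ± 0.096 (edgeR adjusted p = 0.251). Hnrnpa3 (ENSMUSG00000059005, chr2:75659261-75669407, plus strand) was at 915, 996 and 860 CPM in eluates and at 883, 1436 and 1264 CPM in pellets. Pellets 2 and 3 were above all eluates and pellet 1 was not. Hnrnpa3 had a log2 fold change of -0.37 ± 0.19 (edgeR adjusted p = 0.160), the largest error of the 10. In TPM the groups did not overlap for any of these messages. Hnrnpa1 was at 693 to 716 TPM in eluates and 669 to 680 TPM in pellets. Hnrnpa2b1 was at 441 to 500 and 509 to 567 TPM, and Hnrnpa3 at 563 to 635 and 645 to 874 TPM. The limma test on log2(TPM + 1) called Hnrnpa3 lower, at -0.35 (adjusted p = 0.0208), in a fit that called 5246 of 12166 genes. It did not call Hnrnpa1 (0.068) or Hnrnpa2b1 (-0.17). In edgeR without pellet 1, Hnrnpa2b1 was called lower at -0.24 (adjusted p = 0.000737) and Hnrnpa3 at -0.55 (adjusted p = 4.55e-10). Hnrnpa1 was then at 0.02 and not called. Leaving out any other single library gave no call for Hnrnpa2b1 or Hnrnpa3, which were at -0.029 and -0.21 without pellet 2.

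The composition of the messages moved with their fold changes. GC content, weighted over the transcripts of a gene, was lowest in Hnrnpu at 40.9% and highest in Hnrnpl at 53.3%, and Hnrnpd was next at 49.2%. The remaining 7 messages lay between 42.4% and 45.3%. Over the 10 messages the Spearman correlation of log2 fold change with GC content was 0.78, and with transcript length -0.55. Over all 13231 genes tested the same correlations were 0.71 and -0.43, and all of these values come from the same 6 libraries. Among the transcripts with the most counts of each gene, the correlation was -0.73 with the length of the 3′ UTR (n = 10). It was -0.24 with coding length, 0.35 with the GC content of the coding sequence and 0.33 with that of the 3′ UTR. For the 3′ UTR no value over all genes is given here. Hnrnpu-201, the Hnrnpu transcript counted, is 7640 nt long with a 3′ UTR of 5011 nt, while Hnrnpl-201 is 2142 nt long with a 3′ UTR of 360 nt.

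The coding sequences of Hnrnpu-201 and Hnrnpl-201 differ less in composition than the whole transcripts, with a GC content of 50.6% and 56.7%, and their 3′ UTRs are at 34.8% and 35.8%. As an illustration of the whole-transcript values only, a stretch of 60 coding bases of each is printed that was chosen to have a GC content close to that of the whole transcript, so the Hnrnpu stretch is poorer in G and C than its coding sequence. Capitals mark G and C, which are 25 of 60 bases in Hnrnpu (chr1:178333956-178334015, minus strand, GRCm38, from coding base 817) and 32 of 60 in Hnrnpl (chr7:28813312-28813371, plus strand, from coding base 292).
Hnrnpu-201: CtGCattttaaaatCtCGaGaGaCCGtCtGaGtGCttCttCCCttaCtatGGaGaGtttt
Hnrnpl-201: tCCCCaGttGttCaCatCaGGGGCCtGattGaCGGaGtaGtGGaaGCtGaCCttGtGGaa

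**Figure D2:**
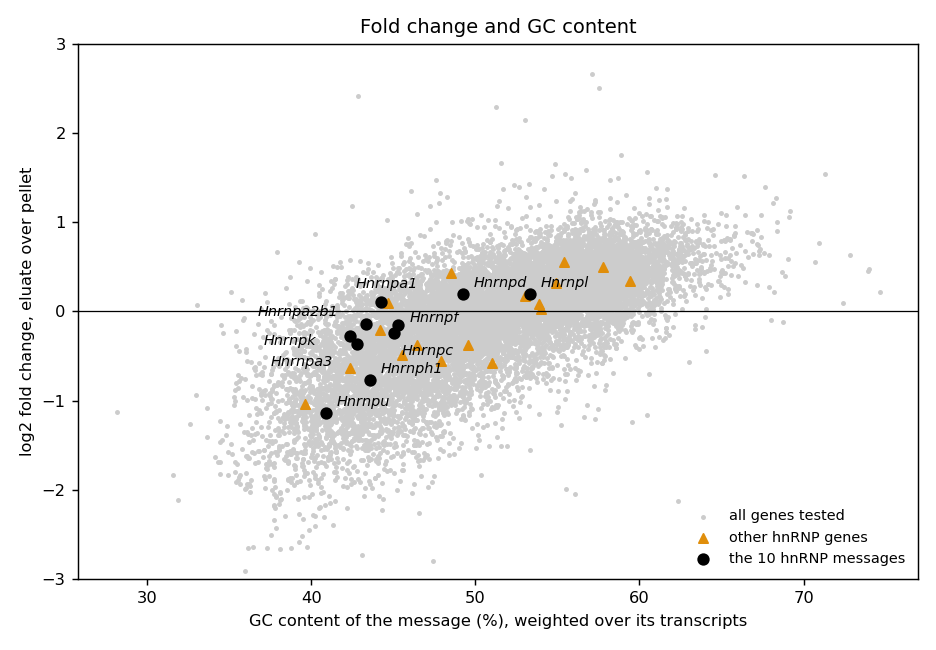
Log2 fold change, eluate over pellet, against GC content of the message in percent, with each of the 10 hnRNP messages (black), 17 other hnRNP genes (orange triangles) and all genes tested (grey; 9 genes lie outside the plotted range). Hnrnpu sits at the low end with 40.9% GC and a log2 fold change of -1.14, and Hnrnpl at the high end with 53.3% GC and 0.20.

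When the smooth trend of each library in GC content and length was removed, most of the 10 messages changed their call. Then 5 were higher in eluates (Hnrnpa1, Hnrnpk, Hnrnpa2b1, Hnrnpd and Hnrnpf), 1 was lower (Hnrnph1) and 4 were not called. That fit called 34.9% of all genes, 19.1% higher and 15.8% lower, and the median log2 fold change was 0.18 over the 10 messages and 0.014 over all genes. Hnrnpa1 was at 0.48 ± 0.051 (SE), Hnrnpk at 0.36 ± 0.063, Hnrnpa2b1 at 0.29 ± 0.055 and Hnrnpf at 0.19 ± 0.054. Hnrnpk, Hnrnpa2b1 and Hnrnpf had the opposite sign in the fit without this step, as did Hnrnpa3 and Hnrnpc. Hnrnpd kept its value, at 0.20 ± 0.056. Hnrnph1 was at -0.26 ± 0.060 (edgeR adjusted p = 0.00121). Hnrnpu, the lowest message before this step, was at -0.0027 ± 0.054 (adjusted p = 0.976), and Hnrnpl at 0.0052 ± 0.050 (adjusted p = 0.953). With the GC trend alone removed, Hnrnpu was still called lower, at -0.31 ± 0.058 (edgeR adjusted p = 5.41e-05), while Hnrnph1 lost its call at -0.15 ± 0.062 (edgeR adjusted p = 0.0530). That fit called 41.2% of all genes, 22.3% higher and 18.9% lower. In the fit with both trends removed, Hnrnpa3 was at 0.16 ± 0.078 and Hnrnpc at 0.047 ± 0.056, neither called. How GC content and length come to move with the groups was not tested.

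**Figure D3:**
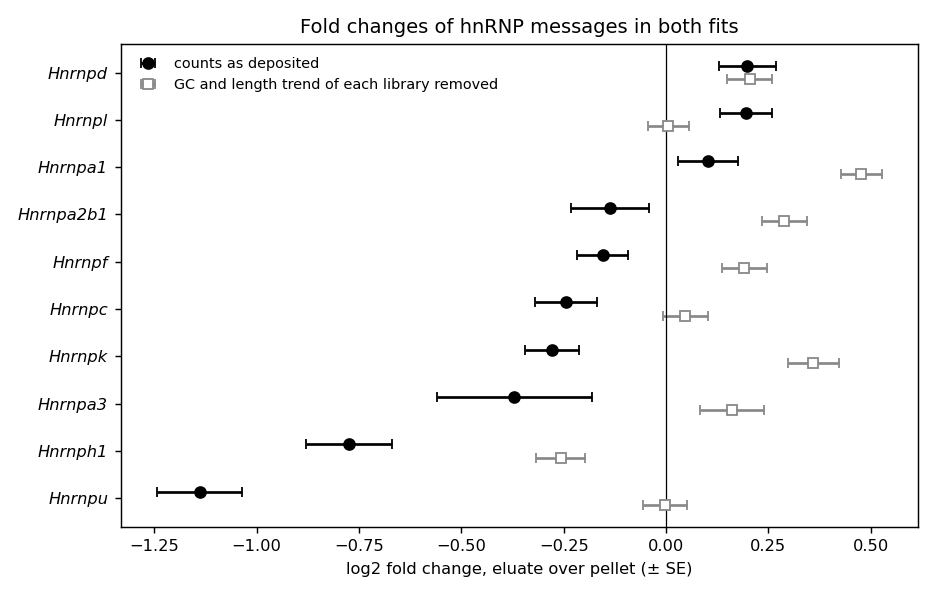
Log2 fold change, eluate over pellet, of each of the 10 messages with its SE, in the fit on counts as deposited (filled circles) and after each library's trend in GC content and length had been taken out (open squares). Hnrnpu moves from -1.14 to -0.0027 and Hnrnpk from -0.28 to 0.36, while Hnrnpd stays at 0.20 and Hnrnph1 stays below 0.

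Alternative splicing gives several hnRNP genes proteins that differ by a short coding stretch, and the share of a gene's counts in transcripts that hold such a stretch was compared. The stretches are printed in capitals with 20 flanking bases of the message on each side, in the sense of the message, with positions on GRCm38. The Hnrnpa2b1 exon that makes protein B1 in place of A2 lies at chr6:51467391-51467426 (minus strand), next to the start codon. The stretch that makes hnRNP C2 in place of C1 lies at chr14:52081789-52081827 (minus strand). Hnrnpd has an upstream alternative exon at chr5:99976534-99976590 and a downstream one at chr5:99963731-99963877 (both minus strand), whose combinations give the AUF1 isoforms.
Hnrnpa2b1 B1 exon: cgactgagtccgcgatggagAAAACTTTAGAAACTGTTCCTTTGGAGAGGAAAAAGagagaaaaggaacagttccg
Hnrnpc C2 stretch: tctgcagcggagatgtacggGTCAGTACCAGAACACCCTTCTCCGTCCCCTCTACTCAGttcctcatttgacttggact
Hnrnpd upstream exon: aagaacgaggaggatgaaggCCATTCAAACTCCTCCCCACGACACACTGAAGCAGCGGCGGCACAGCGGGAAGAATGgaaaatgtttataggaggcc
Hnrnpd downstream exon: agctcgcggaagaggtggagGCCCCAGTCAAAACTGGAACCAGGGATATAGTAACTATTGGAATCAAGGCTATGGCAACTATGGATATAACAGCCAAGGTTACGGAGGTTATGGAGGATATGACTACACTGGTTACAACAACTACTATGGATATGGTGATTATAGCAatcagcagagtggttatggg

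The B1 exon was in transcripts holding 7.84%, 5.69% and 8.24% of Hnrnpa2b1 counts in eluates and 8.36%, 9.996% and 6.43% in pellets. The groups overlapped, and the shorter protein A2 accounted for most of the message at each step. Transcripts with the C2 stretch held 21.9%, 22.1% and 22.1% of Hnrnpc counts in eluates and 22.1%, 19.2% and 20.004% in pellets. The upstream Hnrnpd exon was in transcripts holding 40.1%, 40.9% and 41.8% of counts in eluates and 43.9%, 41.1% and 40.9% in pellets. The downstream exon was in 60.0%, 55.2% and 53.7% in eluates and in 60.6%, 55.2% and 57.1% in pellets. Hnrnpd-202, which holds neither Hnrnpd exon, had 0 counts in pellet 1, 370 and 224 in pellets 2 and 3, and 162 to 343 in eluates. Reads shared by transcripts are split by estimation, so the Hnrnpd shares of pellet 1 are uncertain. None of these 4 stretches separated the eluates from the pellets.

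**Figure D4:**
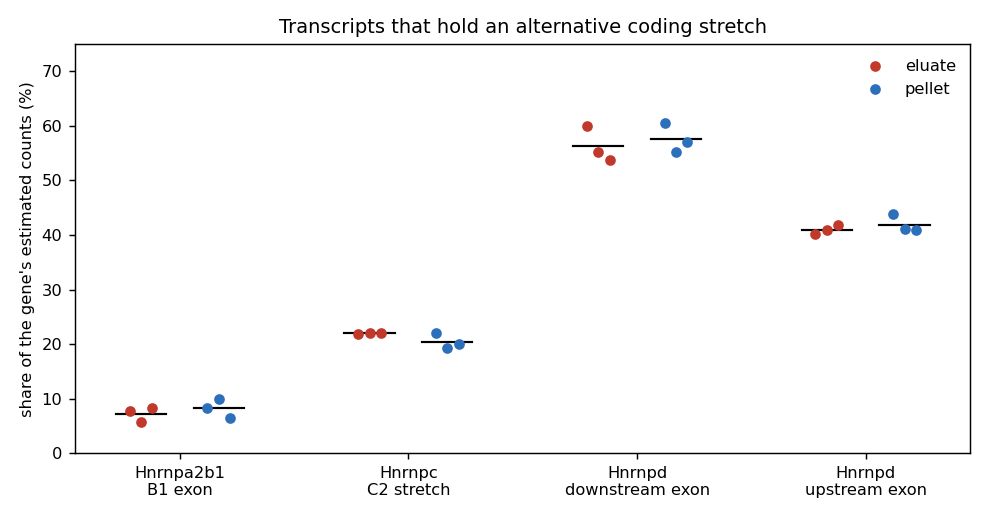
Share of a gene's estimated counts, in percent, in transcripts that hold each alternative coding stretch, with 1 point per library for eluates (red, left of each pair) and pellets (blue, right) and a line for the mean. Eluate and pellet points overlap for every stretch, with a mean share of 56.3% in eluates and 57.6% in pellets for the downstream Hnrnpd exon.

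The 10 genes have 44 transcripts in the deposited files that could be matched, all of them annotated as protein coding, and 39 passed the filter on low counts. The edgeR test on transcripts called 26.4% of all transcripts tested (11.9% higher and 14.6% lower in eluates), and 8 of these 39 were lower and none higher. At an unadjusted p under 0.05, edgeR had 3 of them higher and 10 lower, against 37.7% of all transcripts (17.7% higher and 20% lower). At the adjusted threshold DESeq2 called 3 higher and 10 lower, against 30.2% of all transcripts (14.3% higher and 15.9% lower). The single tested transcript of Hnrnpu, Hnrnpu-201, was at 235, 260 and 203 CPM in eluates and at 444, 554 and 549 CPM in pellets, with a log2 fold change of -1.15 ± 0.13 (edgeR adjusted p = 0.00271). Hnrnph1-201 was at 94.7, 95.6 and 89.9 CPM in eluates and at 138, 185 and 186 CPM in pellets, a log2 fold change of -0.86 ± 0.12 (edgeR adjusted p = 0.00535). Hnrnph1-202, the shorter Hnrnph1 transcript, did not separate the groups, with 11.2, 13.3 and 11.4 CPM in eluates and 9.04, 16.99 and 9.28 CPM in pellets.

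Of the 8 Hnrnpk transcripts, 3 were lower in eluates. Hnrnpk-201 was at 219, 221 and 194 CPM in eluates and at 269, 252 and 284 CPM in pellets, and Hnrnpk-224 at 198, 151 and 175 CPM in eluates and 246, 214 and 254 CPM in pellets. Hnrnpk-202, the longest of them at 2970 nt, had the lowest value of these, -0.77 ± 0.15 (edgeR adjusted p = 0.0148). Hnrnpk-232, the Hnrnpk transcript with the most counts, had a log2 fold change of -0.011 ± 0.12 and was not called. Hnrnpk-216 had 0, 336 and 211 counts in eluates 1 to 3, and Hnrnpk-205 had 182, 10.9 and 32.4. Reads shared by transcripts are split by estimation, so the values of Hnrnpk transcripts in eluate 1 are uncertain. The calls within Hnrnpk rest on single libraries: Hnrnpk-202 lost its call without eluate 3, at -0.78, Hnrnpk-201 without eluate 1, eluate 3 or pellet 3, at -0.37, -0.28 and -0.30, and Hnrnpk-224 without eluate 2, eluate 3 or any pellet, at -0.51 to -0.35.

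Hnrnpd-211 ran against its gene. It is the longest Hnrnpd transcript, 6811 nt with a 3′ UTR of 5429 nt, and it was at 14.6, 12.7 and 10.5 CPM in eluates and at 16.7, 22.8 and 22.6 CPM in pellets. Every eluate was below every pellet, and its share of Hnrnpd counts was 3.37%, 2.71% and 2.61% in eluates and 4.43%, 5.72% and 6.14% in pellets. Its log2 fold change was -0.71 ± 0.19 (edgeR adjusted p = 0.0370), against 0.20 for the gene as a whole. The difference between this transcript and the rest of its gene did not pass the isoform usage test (edgeR diffSpliceDGE, adjusted p = 1.00), which called 0.259% of the transcripts it compared, and the call was lost without eluate 1, 2 or 3 or pellet 2 or 3, at -0.83, -0.72, -0.60, -0.63 and -0.65. The next longest Hnrnpd transcript, Hnrnpd-201 (2000 nt), was at 159, 179 and 157 CPM in eluates and at 148, 140 and 128 CPM in pellets, with a log2 fold change of 0.25 ± 0.082 that was not called (adjusted p = 0.0766).

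Hnrnpf-201 and Hnrnpc-210 were the other transcripts called lower. Hnrnpf-201 held 48.8 ± 1.79% of Hnrnpf counts in eluates and 51.7 ± 0.876% in pellets, and its log2 fold change was -0.25 ± 0.051 (edgeR adjusted p = 0.0158). Its call was lost without eluate 2, eluate 3 or pellet 2, at -0.23, -0.23 and -0.22. Hnrnpf-210, a transcript with 1 exon and 39.1 ± 0.610% of counts in eluates against 36.9 ± 0.498% in pellets, was at -0.084 ± 0.061 and not called. Hnrnpc-210 held 3.93 ± 0.475% of Hnrnpc counts in eluates and 4.74 ± 0.0824% in pellets, at a log2 fold change of -0.53 ± 0.098 (edgeR adjusted p = 0.0113). None of the 9 genes with several tested transcripts showed a change in isoform usage by edgeR diffSpliceDGE, which called 1.21% of 4289 genes. The smallest value among them was that of Hnrnph1 (adjusted p = 0.570), and 0 of the 9 were below 0.05 unadjusted, against 9.56% of all genes compared. By limma diffSplice 1 of the 9 was below 0.05 unadjusted, again Hnrnph1 (adjusted p = 0.352). With diffSpliceDGE 3 of the 9 were below 0.05 unadjusted, against 17% of all genes compared, when at least 10 counts were required in every library, the lowest being Hnrnpd (adjusted p = 0.0670). Without pellet 1 it was again 3 of the 9, against 14.5% of all genes, the lowest being Hnrnpl (diffSpliceDGE adjusted p = 0.109), and none of the 9 passed the adjusted threshold in any setting tried.

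**Figure D5:**
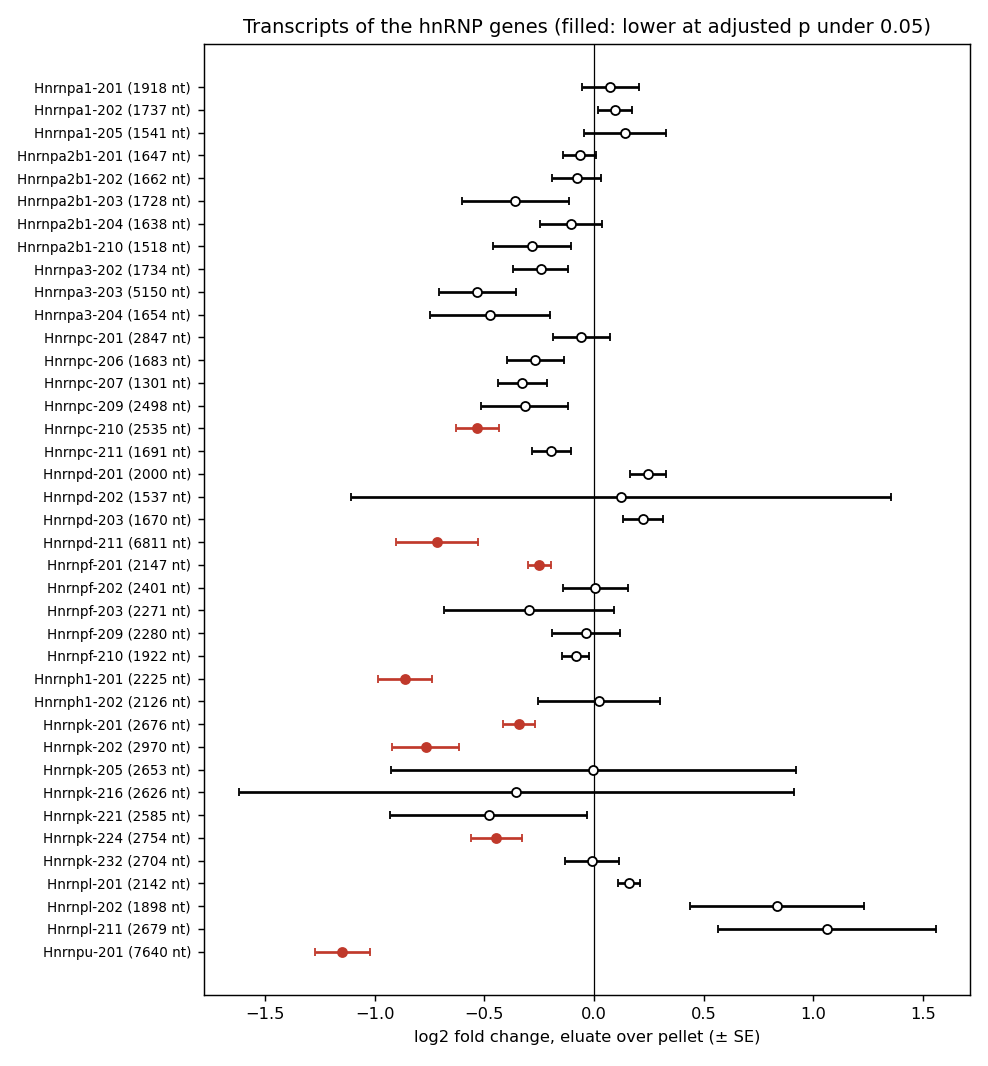
Log2 fold change, eluate over pellet, with its SE for the 39 tested transcripts of the 10 genes, with transcript length in nt beside each name; filled red points passed the test as lower in eluates. The 8 filled points include Hnrnpu-201 at -1.15 and Hnrnpd-211 at -0.71. The Hnrnpd-211 point lies below those of the other Hnrnpd transcripts, but the bar of Hnrnpd-202 (0.12 ± 1.23) reaches past it.

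Pseudogenes took up few of the reads. Pseudogene transcripts sharing at least 50% of their 31-base subsequences with the gene numbered 17 for Hnrnpa3 (2 of them from Gm5641), 6 for Hnrnpf, 5 for Hnrnpa1 (1 of them annotated as unprocessed), and 1 each for Hnrnpk and Hnrnpc. Those of Hnrnpf and Hnrnpc each had at most 8.01 estimated counts in a library. Gm10052 on chromosome 9 is identical to Hnrnpa1-202 over its whole 960 bases and had 71.6 to 109 estimated counts in eluates and 56.8 to 77.4 in pellets. Gm5641 on chromosome 3 matches Hnrnpa3-204 without a mismatch over 1458 bases and had 118 to 157 counts in eluates and 92.7 to 174 in pellets. The share assigned to copies was 0.814 ± 0.114% in eluates and 0.829 ± 0.159% in pellets for Hnrnpa1, and 1.36 ± 0.102% in eluates and 1.30 ± 0.0326% in pellets for Hnrnpa3 (SD, n = 3 each). It was largest for Hnrnpk, at 4.11 ± 0.390% in eluates and 3.91 ± 0.421% in pellets, all in Gm7964 on chromosome 7. Gm7964 differs from Hnrnpk-232 at 10 of 1377 aligned bases (99.3% identity) and shares 78.7% of its 31-base subsequences with Hnrnpk, so the split of reads between them is uncertain. The coding window of 60 bases with the most mismatches, from coding base 539 of Hnrnpk, holds 2, which are in capitals.
Hnrnpk-232: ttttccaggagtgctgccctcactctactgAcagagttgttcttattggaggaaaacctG
Gm7964: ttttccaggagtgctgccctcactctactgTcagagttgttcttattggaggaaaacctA

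Adding the counts of these copies left Hnrnpk at -0.28, Hnrnpa1 at 0.10 and Hnrnpa3 at -0.37 on the log2 scale, with the same calls. Other genes overlap as well: the antisense transcript Gm17092 shares 53.3% of its subsequences with Hnrnpd, and the lincRNAs Gm28901 and Gm47882 share 89.2% and 27.3% of theirs with Hnrnpf. Gm28901 alone had 642 to 952 counts in eluates and 666 to 807 in pellets. No source used here says whether counting took account of the strand, so Hnrnpd reads and those of its antisense partner cannot be told apart. With these transcripts added, Hnrnpd was at 0.20 and Hnrnpf at -0.16, and both kept their calls.

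Over all genes tested, 24.5% were higher in eluates and 28.2% lower. Among 17 other hnRNP genes and relatives, 6 were higher in eluates, 7 lower and 4 not called, with a median log2 fold change of 0.025. The highest of those called were Hnrnpa0 at 0.55 ± 0.076, an A-type protein encoded without introns, and the poly(C)-binding proteins Pcbp1 at 0.49 ± 0.073 and Pcbp2 at 0.43 ± 0.061. The lowest were Syncrip at -1.04 ± 0.084, also called hnRNP Q, Hnrnph2 at -0.64 ± 0.098 and Hnrnpm at -0.58 ± 0.075. Syncrip, with a GC content of 39.6%, was at 137, 132 and 119 CPM in eluates and at 234, 284 and 281 CPM in pellets, and was thus close to Hnrnpu in fold change. With the GC and length trend removed, 4 of the 17 were higher and 3 lower, against 19.1% and 15.8% of all genes. Syncrip was then at -0.093 ± 0.061 and not called. Hnrnpm kept its value in that fit, at -0.61 ± 0.065. Among paralogs, Hnrnph1 was at -0.77 and Hnrnph2 at -0.64, while Hnrnpl was at 0.20 and Hnrnpll at -0.20 ± 0.079. With the GC and length trend removed, Hnrnph1 was at -0.26 and called lower, and Hnrnph2 at -0.017 and not called. In that fit Hnrnpll was at 0.32 and called higher, and Hnrnpl at 0.0052 and not called. The difference within each pair was not tested. Hnrnph1 shares 5 subsequences of 31 bases with Hnrnph2 and 10 with Hnrnph3.

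Transportin, the import receptor of A-type hnRNP proteins, is encoded by Tnpo1 and Tnpo2. Tnpo1 was at 98.1, 103 and 94.4 CPM in eluates and at 227, 272 and 295 CPM in pellets, a log2 fold change of -1.42 ± 0.089 that passed the edgeR test. Tnpo2 was at 0.02 ± 0.082 and was not called. The arginine methyltransferase genes Prmt1 and Prmt5, whose products modify RGG motifs of hnRNP proteins, were at -0.010 ± 0.066 and 0.045 ± 0.083, and neither passed. With the trend removed Tnpo1 was at -0.21 and still called lower, and Prmt1 was at -0.51 and called lower.

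The authors' deposited table, which lists genes with an adjusted p under 0.05, holds 6 of the 10 messages. In the authors' deposited table the log2 fold changes are -1.05 for Hnrnpu, -0.71 for Hnrnph1, -0.22 for Hnrnpc, -0.21 for Hnrnpk, 0.18 for Hnrnpl and 0.24 for Hnrnpd. Each has the sign found here from the counts. Hnrnpf, called lower here at the edge of the threshold, is not listed in the authors' deposited table, and neither are Hnrnpa1, Hnrnpa2b1 and Hnrnpa3.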

How the data were processed

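The authors' deposited files hold, per the file headers, Salmon output for 84226 transcripts in each of 6 libraries, with an estimated count and a TPM value (scaled to the same total in every library) per transcript. The authors' deposited comparison table holds, per the file headers, a normalized count averaged over libraries (a signal), a Wald score, the log2 fold change and its error, and raw and adjusted p-values. The submitters' processing notes name cutadapt 4.7, STAR 2.7.11b, Salmon 1.10.3, DESeq2 1.44.0 and the build GRCm39, without saying what each did; settings and annotation are not stated in any source used here.

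Transcripts were matched by identifier, without version, to GENCODE mouse release M21 (GRCm38), which gave names, structures, sequences and coordinates; 76858 matched, and the 7368 others held 1.63% to 2.35% of a library's counts and were left out. GENCODE coordinates therefore belong to another build than the authors'. Estimated counts were summed per gene, rounded and tested with edgeR 4.0.16 under R 4.3.3 (quasi-likelihood, robust, TMM factors, default filter, Benjamini-Hochberg over 13231 genes, threshold 0.05); CPM are TMM-scaled, and the SE is the log2 fold change divided by the square root of the F statistic. Depth was 7.84e+06 to 1.16e+07 counts per library. Reads of near-identical transcripts are split by estimation, so genes with close copies are uncertain. Isoform usage was tested with diffSpliceDGE; on simulated data it made more false calls than its threshold allows. The trend fit removed natural splines (5 degrees of freedom) in GC content and length from each library. Copies were pseudogenes sharing at least 50% of their 31-base subsequences with a gene. Alternatives used DESeq2 1.42.0, limma 3.58.1 and other settings; Python 3.11.15 with pandas 2.3.3, Biopython 1.88, numpy 2.4.6 and matplotlib 3.10.9 made tables and plots.

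The 10 genes, the list of 17 related genes, the import and methylation genes and the markers were chosen with earlier results of these data known. Named items were all 10 genes, transcripts with at least 5% of a gene's counts in a library, copies with at least 10 counts, and the 3 highest and 3 lowest called of the 17. Hnrnpc-210, Hnrnpk-202 and transcripts with smaller shares were chosen after their values were seen. No matched transcript of the 10 genes is annotated in a non-coding class, so the planned share of such transcripts was not computed. A further alternative stretch is not reported here.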

Additional observations from a re-analysis of the deposited data

How the results depend on the processing

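Counts of calls moved under several settings. With the GC and length trend removed, 5 of the 10 messages were higher and 1 lower. With the replicate block added it was 6 and 1, and with the GC trend alone removed 7 and 1. Of 13231 genes tested, these fits called 2523, 2505 and 2949 higher and 2097, 2085 and 2502 lower. The lower message was Hnrnph1 in the first pair of fits and Hnrnpu in the third. In all 3 of these settings 3 of the 17 related genes were lower, and the first pair called 4620 and 4590 genes. In limma on log2(TPM + 1), 0 of the 10 and 3 of the 17 were higher, against 1909 of 12166 genes tested. With upper-quartile factors 3 of the 10 were lower. Of 13231 genes tested, 4055 were then higher and 3184 lower, against 3241 and 3736 with TMM. The median of all genes moved to 0.094.

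Leaving out libraries or pairs gave 0 to 2 of the 10 messages higher, 2 to 7 lower and 4611 to 7761 genes called. Of 13136 to 13522 genes tested, 1949 to 3722 were then higher and 2662 to 4039 lower. In transcripts, leaving out single libraries gave 0 to 2 higher and 3 to 10 lower. Those fits called 3202 to 5387 of all transcripts in either direction, out of 20197 to 20283 tested. Transcripts higher were 1 with RLE factors, 1 with at least 10 counts in every library and 3 with DESeq2. Those settings called 5118 of 19207, 5958 of 14981 and 6659 of 22024 transcripts in either direction. The Hnrnpk gene call was lost without both libraries numbered 3, at -0.22.

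Log2 fold changes turned positive in the GC and length fit, in that fit with the replicate block, and in the GC fit for Hnrnpa2b1 (0.29, 0.29 and 0.50), Hnrnpa3 (0.16, 0.17 and 0.32), Hnrnpc (0.047, 0.044 and 0.25), Hnrnpf (0.19, 0.19 and 0.31) and Hnrnpk (0.36, 0.36 and 0.43), and in the GC fit for Hnrnph2 (0.073). Genes near 0 changed sign often. Tnpo2 was at -0.015, -0.015 and -0.17 in those fits, -0.073 on TPM, -0.0019 with an effective-length offset and -0.044 to 0.12 without libraries. Prmt1 was at 0.080, 0.0030, 0.0042 and 0.00095 with upper-quartile factors, library totals, no filter and DESeq2, and -0.047 to 0.035 without libraries. Prmt5 was at -0.055, -0.056 and -0.064 in those fits, -0.057 on TPM and -0.014 to 0.11 without libraries.

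On TPM the share of copies was 1.63% in eluates and 1.67% in pellets for Hnrnpa1, 1.71% and 1.69% for Hnrnpa3, and 7.77% and 7.59% for Hnrnpk. The replicate block called 7076 of 13231 genes, 3306 higher and 3770 lower, and 2 and 5 of the 10 messages. It ended the calls of Hnrnpd-211 and Hnrnpk-201 (edgeR adjusted p = 0.115 and 0.0736). Deviations of libraries with the same number correlated at 0.070, 0.15 and -0.010, and those with different numbers at -0.18 to 0.11. With so few libraries these values cannot settle pairing. The numbers were not taken to pair the samples because the labels do not say that they do. The causes of these moves were not tested.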
